A study of Homo sapiens with 38 samples.

Results

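The distal end of the short arm of human chromosome 1, distal 1p, was described from a Hi-C contact map of RWPE-1 cells. Hi-C counts read pairs whose ends were ligated between fragments that lay close together in the nucleus. The stretch covered bins 1 to 5500 of the 5 kb map, which is 27.5 Mb of chromosome 1 in the build GRCh37. Its members were the pairs of 5 kb bins that lay 20 kb to 2 Mb apart. There were 2103306 possible pairs, and 708083 of them held at least 1 read pair. The 5 kb table as held here had 3489211 filled bin pairs at all distances. It ends at row bin 5549, so it holds few rows beyond the stretch. The rule itself used position and distance alone.

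RWPE-1 is an immortalised, non-tumorigenic line of human prostate epithelium. The map came from wild type RWPE-1 cells with no treatment, by in situ Hi-C with the enzyme MboI, and the authors combined 2 replicates into 1 map. RNA levels came from 5 RWPE-1 control libraries, which are also wild type but carry genome editing as their treatment label, so the RNA and the map are from differently handled cells of 1 line. The study asked how a prostate cancer risk region on chromosome 7 bears on HOXA13 expression, and distal 1p served no comparison of its own in it.

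In interphase, chromosomes are folded into domains, inside which loci touch more often than they touch loci across a border. Cohesin is known to extrude chromatin loops until it meets CTCF bound to DNA, and pairs of such sites appear as focal peaks of contact, often at the corner of a domain. The rate at which contacts thin out with distance is the most general readout of this folding.

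The labelled cell type was first compared with its markers. The basal keratin genes KRT5 and KRT14 ranged over 5962 to 10310 and 2843 to 6151 TPM in the 5 control libraries, where TPM is a share of transcripts corrected for transcript length and scaled to a fixed total. TP63, the basal transcription factor, ranged from 34.0 to 117 TPM. KLK3, which encodes prostate-specific antigen and marks luminal prostate cells, was listed at 0 TPM in every library. The 3 basal markers were thus detected in every library and KLK3 in none.

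The stretch held 3823460 read pairs with both ends in it, and 2194024 of them (57.4%) joined bins 20 kb to 2 Mb apart. Of the 5500 bins, 5095 (92.6%) were usable, which means that they held at least 25% of the median coverage, and 178 bins held no read pair. The longest unusable runs were chr1:1-710000, with 142 bins, and chr1:13220001-13775000, with 111 bins. The run chr1:3845001-3995000 had 0 read pairs over 30 bins. Coverage of the usable bins, as the fitted factor of each bin, had a median of 1.03, with 5th and 95th percentiles of 0.597 and 1.48. The highest, 5.00, was at chr1:16890001-16895000, and 22 bins were above 2. Summing the 5 kb counts gave the authors' 40 kb table exactly, in 31624 of 31624 pairs of 40 kb bins. The map has no replicate that can be read separately, so every interval given for it covers counting error only, and nothing in it could be tested against biological spread.

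Contacts thinned out steeply with distance. Bins 20 kb apart shared 21.6 read pairs on average, and 0.0397% of those bin pairs were empty. At 100 kb the mean was 5.69 read pairs per bin pair, at 500 kb it was 0.945, and at 2000 kb it was 0.0989 with 90.7% of bin pairs empty. After balancing, which divides out the coverage of each bin, the level was 19.8 read pairs per bin pair at 20 kb, 5.23 at 100 kb and 0.0904 at 2000 kb. Contacts at 20 kb were thus 219 times as frequent as those at 2000 kb.

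The decay was not a single power law. The slope of log contact level on log distance was -1.12 over the whole range, -0.82 between 20 and 200 kb and -1.50 between 200 kb and 2 Mb. The curve therefore bent downward within the range of domain sizes described next. The slope over the whole range moved little without balancing (-1.12), in 10 kb bins (-1.14) and between 50 kb and 1 Mb (-1.13).

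**Figure D1:**
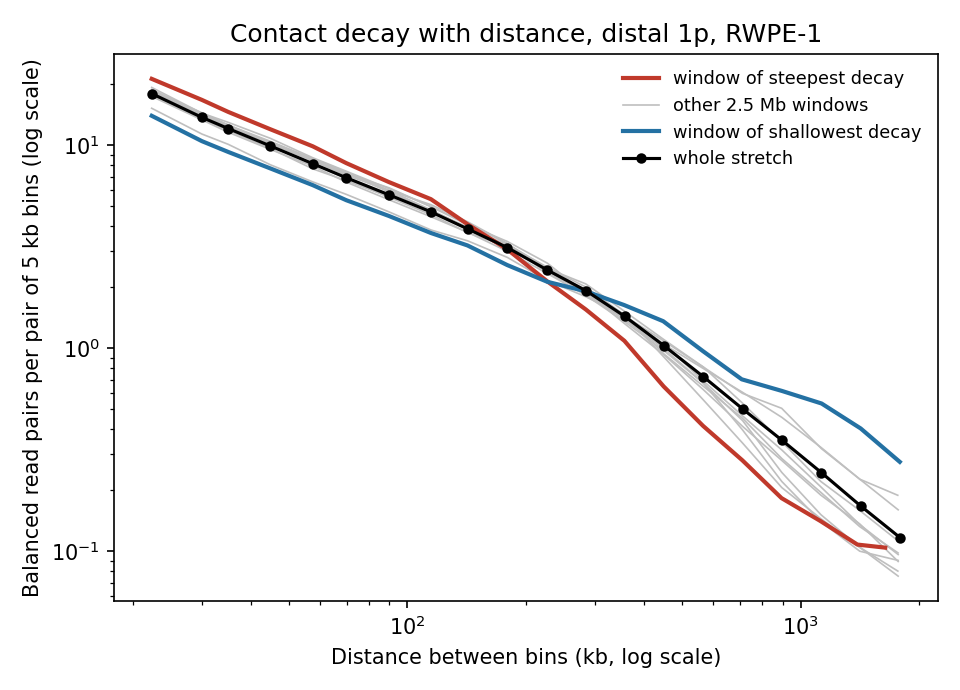
Balanced read pairs per pair of 5 kb bins (vertical axis, log scale) against the distance between the bins in kb (horizontal axis, log scale), with points for the whole stretch and lines for its 11 windows of 2.5 Mb. The lines run nearly parallel up to 200 kb and fan out beyond, where slopes run from -1.79 to -0.99 (whole-range slopes of the coloured lines, -1.33 and -0.85).

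Short-range decay was nearly the same along distal 1p and long-range decay was not. Among 11 windows of 2.5 Mb, the slope between 20 and 200 kb was -0.83 ± 0.032 (mean and SD over windows, n = 11), with values from -0.91 to -0.79. Between 200 kb and 2 Mb it was -1.54 ± 0.255 (SD, n = 11), with values from -1.79 to -0.99. Windows are neighbouring pieces of 1 map and not replicates, so these SDs describe regional spread.

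The extremes were the first window and the sixth. From 0 to 2.5 Mb, at the end of the chromosome, the slope was -1.33, and contacts beyond 200 kb were 0.714 of those expected from the whole stretch. From 12.5 to 15 Mb the slope was -0.85, and contacts beyond 200 kb were 1.25 times those expected. These 2 windows were also those with the fewest usable bins, 336 and 340, against 447 to 500 in the other windows. The part of the unusable bins in their slopes was not tested. The steepest fall beyond 200 kb, -1.79, lay in 22.5 to 25 Mb, where 499 bins were usable.

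Distal 1p was next set beside the rest of chromosome 1, in windows of 27.5 Mb on the authors' 40 kb table. Its slope between 40 kb and 2 Mb was -1.27, against -1.30 to -1.01 in the 8 other windows, with a median of -1.11. Only 1 of those 8 windows was steeper. Contacts beyond 200 kb were 0.890 of the chromosome's expectation in distal 1p, against 0.873 to 1.10 elsewhere. Coverage was 3512 read pairs per usable 40 kb bin in distal 1p, against 2585 to 4575. With 1 map and 1 window, no test of these differences was possible.

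Domain borders were called at 99 bins. A border was a bin across which contacts fell to a local low, counting pairs with 1 end within 100 kb on each side, with a prominence of at least 0.3 on the log2 scale of observed over expected read pairs. Of 4966 bins with a score, the 99 were 1.99 percent of scored bins and 3.99 per Mb. The number depended on the scoring window, with 151 borders at 50 kb and 65 at 200 kb, and 59 of the 99 lay within 20 kb of a border of the wider window. The median prominence was 1.06, with values from 0.30 to 2.42. It was at least 1 for 52 borders and under 0.5 for 19.

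Contacts across the 99 borders had a median of 0.632 of those expected at the same distances and coverage, with values from 0.332 to 1.17. The counts behind these ratios were 703 to 2978 read pairs, so counting error was small. For 94 borders the upper 95% limit of the ratio (exact Poisson) lay below 1. The flanks, counted within 100 kb on each side alone, had a median ratio of 1.11, and both flanks were above the border itself at 98 borders. Borders were called as lows of this same score, so low ratios and higher flanks were largely fixed by the rule. The exception, chr1:18630001-18635000, had a ratio of 0.750 across it and 0.744 on its left side. The border with the highest ratio, chr1:6405001-6410000, had 1.17 across it, but 1.75 and 1.53 on its flanks, so it was a low between a pair of dense neighbours.

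The strongest border was chr1:21525001-21530000, with a prominence of 2.42. It was crossed by 1021 read pairs where 3078 were expected, a ratio of 0.332 (95% counting interval 0.312 to 0.353). Next came chr1:18905001-18910000, crossed by 829 read pairs against 2232 expected, a ratio of 0.371. Then came chr1:1840001-1845000, crossed by 757 read pairs against 1709 expected, and its left flank stood at 1.71. All 3 therefore passed fewer than 1 in 2 of the contacts expected.

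The next 9 by prominence were spread over the stretch. They started at positions 8020001, 23290001, 26145001, 20825001, 2325001, 24730001, 8410001, 22740001 and 2120001 of chromosome 1. Their ratios ran from 0.402 at chr1:8020001-8025000 to 0.514 at chr1:2120001-2125000. All 12 strongest ratios moved by more than counting error without balancing and none did in 10 kb bins. That of the strongest border became 0.410 without balancing.

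**Figure D2:**
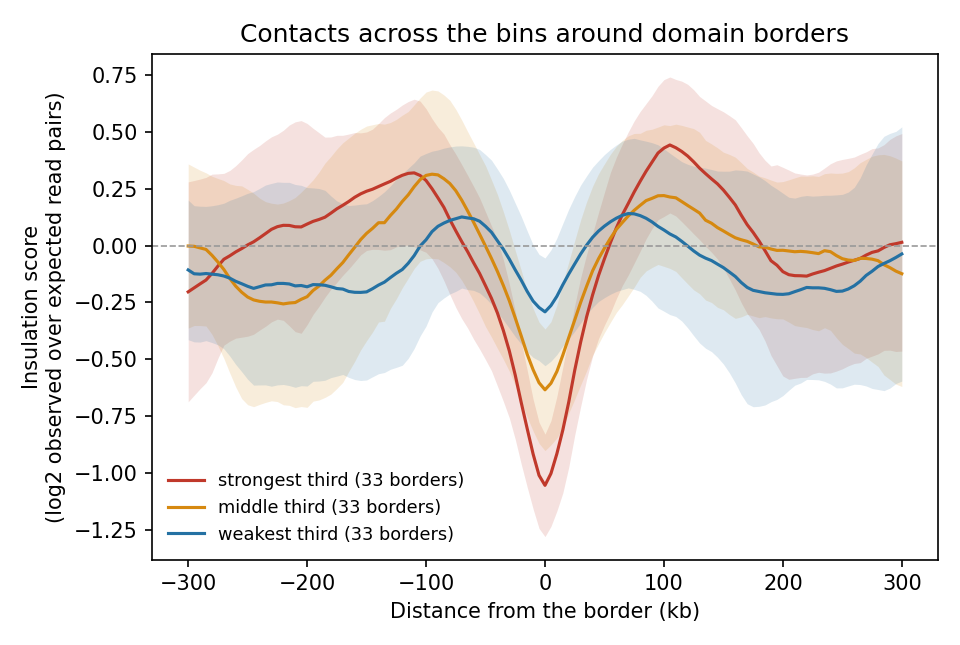
Insulation score, the log2 of observed over expected read pairs across a bin (vertical axis), against distance from the border in kb (horizontal axis), as the mean (line) and SD (band) over borders of each class by prominence. The mean at the border was -1.05 for the 33 strongest borders, -0.63 for the 33 in the middle and -0.29 for the 33 weakest.

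At the border the mean score was -1.05 ± 0.226 for the 33 strongest, -0.63 ± 0.268 for the 33 in the middle and -0.29 ± 0.237 for the 33 weakest (SD over borders). A distance of 100 kb to the right, the means were 0.43, 0.22 and 0.07 in the same order of classes. At the same distance to the left they were 0.29, 0.31 and 0.03, so the middle class was not below the strongest there. The score counts pairs up to 100 kb on each side, and that window sets the width of the dip. Since the classes were made by prominence, their order at the border is a consequence of the sorting and no finding.

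The windows of 2.5 Mb held 4 to 12 borders. Whether these counts differ by more than random placing would give was not tested. The fewest lay in 2.5 to 5 Mb, where 447 bins were usable and there were 2.04 borders per scored Mb. The 2 windows with 12 were 7.5 to 10 Mb and 17.5 to 20 Mb. Per scored Mb the density was highest in 0 to 2.5 Mb, at 4.82 from 8 borders, just above those 2 windows. The median prominence per window was highest, 1.45, in 22.5 to 25 Mb and lowest, 0.52, in 12.5 to 15 Mb, the window of shallowest decay. On the 40 kb map, with its 200 kb scoring window, distal 1p had 2.43 borders per scored Mb, against 1.76 to 2.58 in the other 8 windows of chromosome 1, and 7 of those were lower.

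Neighbouring borders enclosed 94 domains. Their length had a median of 212.5 kb, with quartiles of 175 and 288.8 kb and a range from 95 to 535 kb. Inside them, contacts had a median of 1.22 times those expected, with values from 0.786 to 1.75, and 80 of 94 domains were above 1. Domains are by construction the stretches between lows of contact, so a ratio above 1 inside them was partly fixed by the rule.

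The densest domains were short ones. The stretch chr1:6305001-6405000 had 1.75 times the contacts expected inside it, from 2448 read pairs, and chr1:1685001-1840000 had 1.71 times, from 5938. The sparsest were chr1:14705001-14910000, at 0.786 times, and chr1:4915001-5320000, at 0.806 times.

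Corners of domains had higher ratios of observed over expected contacts than their interiors in most cases. A corner was counted over 4 bins at each end, the border bin and the next 3 inside. The median corner ratio was 1.60, and the corner ratio exceeded that of the interior in 73 of 94 domains. The expected level at each distance averages pairs inside domains and pairs across borders. Corner pairs are the longest in a domain, and longer pairs cross borders more often. A higher ratio at corners was therefore partly fixed by the way the expected level is made. The strongest corner joined the ends of chr1:8025001-8410000, where 166 read pairs made 5.73 times those expected, against 1.32 in the interior. Both ends of that domain were among the 12 strongest borders. The next were the corners of chr1:22995001-23290000, with 5.02 times from 209 read pairs, and chr1:26925001-27120000, with 4.35 times from 323.

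Strong contact peaks were rare. A bin pair was called where its read pairs exceeded the counts expected from 4 kinds of local surroundings, with at least 10 read pairs, at least 2-fold over a ring around the pair and an adjusted p under 0.01 by a one-sided exact Poisson test with Benjamini-Hochberg adjustment. That rule weighs counting error alone and serves here as a threshold. Of 417197 bin pairs with enough expected reads around them, 75 were called, or 0.018 percent. At least 10 read pairs and 2-fold over the ring were reached by 2853 bin pairs. All 75 with an adjusted p under 0.01 were called, so that threshold set the count. The pairs examined lay 50 to 840 kb apart, so longer contacts could not be assessed at this depth.

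Merging called pairs within 20 kb and keeping groups of at least 2 gave 17 peaks. Their distances had a median of 110 kb, from 65 to 325 kb. Their read pairs at the strongest bin pair ran from 14 to 93 and their fold over the ring from 2.60 to 15.3. The count depended on the settings. It was 77 without balancing, 30 at an adjusted p under 0.1, 29 in 10 kb bins and 11 at 3-fold. The folds depended on balancing too. At the same bin pairs without it, 2 of the 17 folds were below the 2-fold threshold, at 1.10 and 1.13, and the other 15 were 4.24 to 11.5.

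**Figure D3:**
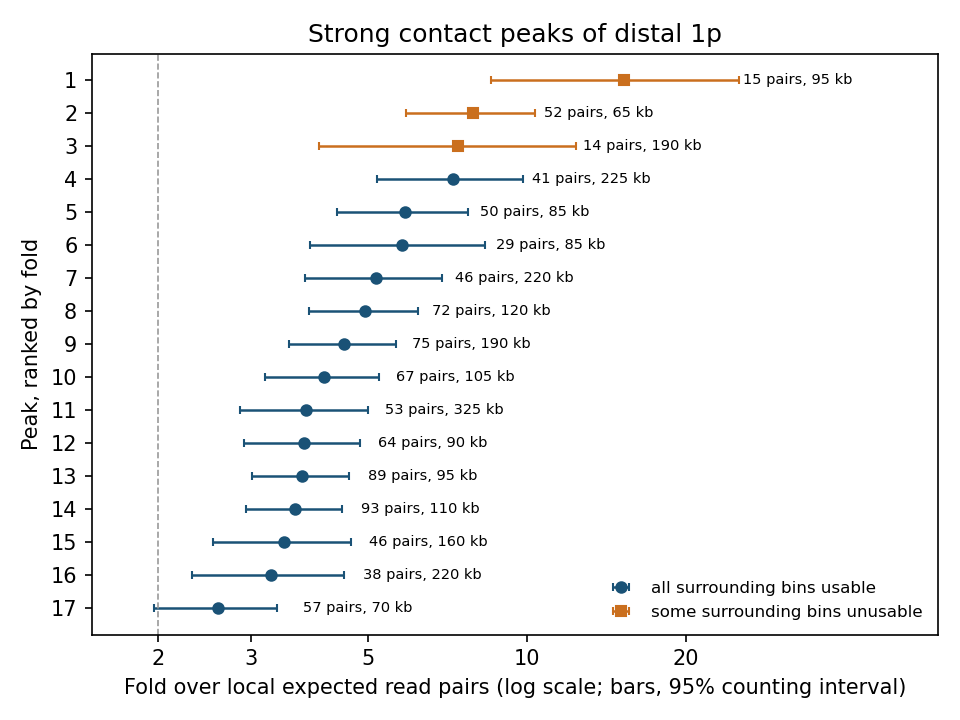
Fold of each of the 17 peaks over the read pairs expected from the ring around it (horizontal axis, log scale; bars, 95% counting interval), ranked by fold (vertical axis), with read pairs and anchor distance printed beside each point. Squares mark the 3 peaks with unusable bins around an anchor, which hold the highest folds and, for 2 of them, the fewest read pairs.

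The 3 highest folds stood beside unusable bins. The peak from chr1:16980001-16985000 to chr1:17075001-17080000 had 15 read pairs against 0.98 expected, a fold of 15.3, and the coverage of its anchors was 0.427 and 0.357. Without balancing its fold was 1.10. That from chr1:16865001-16870000 to chr1:17055001-17060000 had 14 read pairs and a fold of 7.39, which was 1.13 without balancing. That from chr1:1580001-1585000 to chr1:1645001-1650000 had 52 read pairs and a fold of 7.91. Between 11 and 14 of the 15 bins centred on each of these anchors were usable. The part of the missing bins in these folds was not tested, and the other 14 peaks, with all 15 bins usable at both anchors, are described apart.

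Those 14 peaks had a median fold of 3.97, from 2.60 to 7.24, and a median distance of 115 kb, from 70 to 325 kb. The strongest joined chr1:22745001-22750000 to chr1:22970001-22975000, 225 kb apart, with 41 read pairs against 5.67 expected. Its fold was 7.24 (95% counting interval 5.19 to 9.82). Its left anchor lay 5 kb from the border at chr1:22740001-22745000, 1 of the 12 strongest, and its right anchor 20 kb from a border.

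A second peak, chr1:7725001-7730000 to chr1:7810001-7815000, had 50 read pairs and a fold of 5.88. Near the second strongest border a pair of peaks began at almost the same place. One joined chr1:18920001-18925000 to chr1:19005001-19010000 with 29 read pairs and a fold of 5.81. The other joined chr1:18925001-18930000 to chr1:19145001-19150000 with 46 read pairs and a fold of 5.19, and it passed over 1 border. Their left anchors, 15 and 20 kb from the border, share a neighbourhood, so these peaks are not independent items.

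The 4 peaks with the most read pairs, 72 to 93, had folds of 3.64 to 4.93. The peak from chr1:17450001-17455000 to chr1:17560001-17565000 had 93 read pairs and a fold of 3.64. The peak from chr1:23870001-23875000 to chr1:23965001-23970000 had 89 and a fold of 3.75. That from chr1:24525001-24530000 to chr1:24715001-24720000 had 75 and a fold of 4.51, with anchors 5 and 15 kb from borders. That from chr1:20845001-20850000 to chr1:20965001-20970000 had 72 and a fold of 4.93, with anchors 20 and 25 kb from borders. Their 95% counting intervals overlapped, so the order of these 4 folds is not resolved by the counts.

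The longest of the 14 joined chr1:16945001-16950000 to chr1:17270001-17275000, 325 kb apart, with 53 read pairs and a fold of 3.82. Its anchors had coverages of 2.20 and 1.81, and the bins of highest coverage and an unusable run, chr1:17125001-17175000, lay in the same neighbourhood. The weakest, chr1:23425001-23430000 to chr1:23495001-23500000, had 57 read pairs and a fold of 2.60 (95% counting interval 1.97 to 3.36), and its anchors lay 135 and 110 kb from any border. The remaining 4 had folds of 3.28 to 4.13 and distances of 90 to 220 kb.

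**Figure D4:**
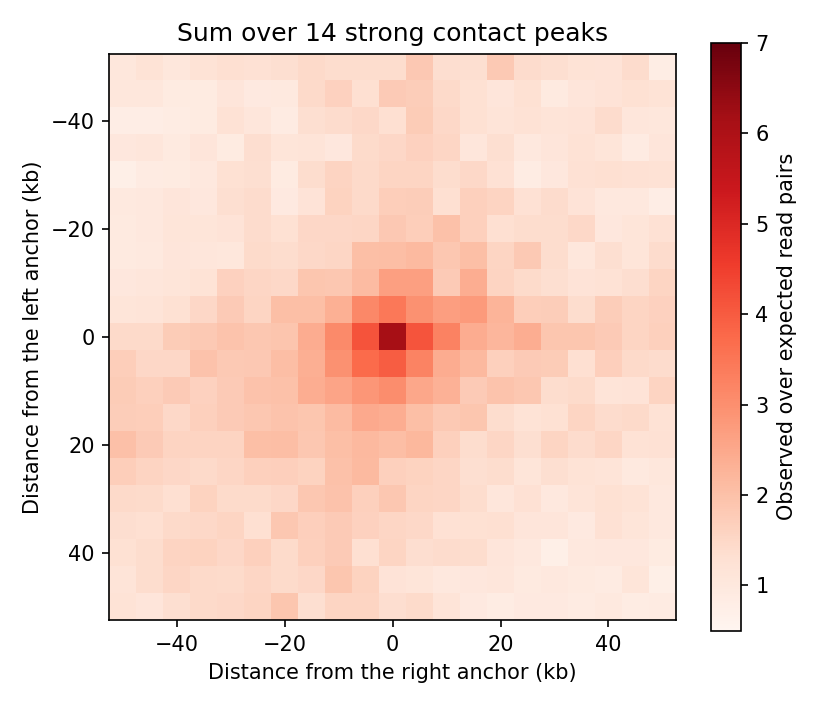
Observed over expected read pairs (colour) summed over the 14 peaks with all surrounding bins usable, by distance in kb from the left anchor (vertical axis) and the right anchor (horizontal axis) in 5 kb bins. The centre stands at 6.13, and the corner towards the interior of the loop, lower left, at 1.43. Shorter peaks add few or no bin pairs to that corner.

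Summed over the 14 peaks, the centre bin pair had 820 read pairs against 133.8 expected from distance and coverage, a ratio of 6.13. Over the central 3 by 3 bin pairs the ratio was 3.96. The corners of the square around the anchors were at 0.991 and 0.984 on one diagonal and 1.16 and 1.43 on the other. The corner at 1.43 holds pairs that lie between the anchors. Pairs under 20 kb apart were not used, so the shorter peaks add few or no pairs to it. That corner is thus not a sum over the same peaks as the other corners. The peaks were chosen for their centre, so the centre ratio is a description.

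Peak anchors lay close to domain borders. Of the 28 anchors of the 14 peaks, 19 (67.9%) lay within 25 kb of a border, against 21.3 percent of all usable bins. Within 10 kb the numbers were 7 of 28 (25%) against 9.68% of usable bins. At 12 of the 14 peaks at least 1 end lay within 25 kb of a border, and at 7 both did. Between the anchors, 12 peaks had no called border and 2 had 1. The longest of these peaks, at 325 kb, spans the unusable run chr1:17125001-17175000 and bins without a score, where no border could be called.

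Borders and peaks were read from the same read pairs, each peak gives 2 anchors, and anchors of neighbouring peaks share borders. The 28 anchors are therefore not independent, so no interval is given for their share and no test was made. Coverage also differed between the sets. The median coverage was 1.51 at the 28 anchors and 1.03 over usable bins, and 26 of 28 anchors were above 1, against 55.4% of usable bins. Its part in the placing of anchors was not tested. Over all 17 peaks the share within 25 kb was 58.8%. With peaks and borders both called without balancing it was 51.4%, or 56 of 109 anchors. The share of usable bins near those other borders was not computed.

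Peaks were counted in the same windows of 2.5 Mb, again without a test of their spread. Of the 14, 4 lay in 22.5 to 25 Mb, the window with the most prominent borders, and 3 each in 15 to 17.5 Mb and 17.5 to 20 Mb. There were 2 in 7.5 to 10 Mb and 1 each in 10 to 12.5 Mb and 20 to 22.5 Mb. The other 5 windows had none. They were also the 5 windows with the fewest read pairs, 96858 to 201154, against 224534 to 244742 in the windows with peaks. The part of depth in these counts was not tested, and finding none at this depth limits strong peaks alone.

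The genes of distal 1p were taken in their order along the chromosome, from the end of the short arm through NUDC, a dynein-associated nuclear migration factor. RefSeq lists 386 protein-coding genes there in GRCh38.p14, and 355 of them had a TPM value. Since the map is in GRCh37, genes were not placed on its bins, and only their order was used. Whether borders or anchors lie at expressed genes was not analysed here.

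About as many of these genes were expressed as elsewhere in the genome. A median of at least 1 TPM over the 5 control libraries was reached by 216 of 355 genes (60.8%) in distal 1p, against 11146 of 18600 other protein-coding genes (59.9%). The median level of the expressed genes was 20.0 TPM in distal 1p and 20.9 TPM elsewhere. In distal 1p 158 genes reached 10 TPM, 27 reached 100 TPM, and 50 were listed at 0 in every library. Single libraries had 212 to 220 expressed genes. Nothing in the labels says that these libraries came from separate cultures, so their spread may be technical.

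The highest level was that of RPL11, a protein of the large ribosomal subunit, with 2082, 2026, 1991, 2166 and 2134 TPM in controls 1 to 5. ENO1, the glycolytic enzyme enolase, followed with 2110, 1858, 1875, 2156 and 1899 TPM. Both were steady over the libraries, and their ranges overlapped. Next in order of median TPM were HMGN2, a nucleosome-binding protein, RPL22, a ribosomal protein, STMN1, the microtubule regulator stathmin, and SFN, the epithelial 14-3-3 protein, with medians of 850.5, 587.5, 584.2 and 545.7 TPM. The ranges of RPL22, STMN1 and SFN overlapped, so their order was within the spread. PARK7, GNB1 and CAPZB completed the steady part of the top 10, with medians of 294.2, 233.1 and 230.0 TPM.

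ISG15, an interferon-induced ubiquitin-like protein, was the least steady of the top 10. It had 603.3, 514.0, 11.9, 243.8 and 59.5 TPM in controls 1 to 5. Controls 1 and 2 were high and control 3 low, a range wider than that of any other gene among the 10.

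**Figure D5:**
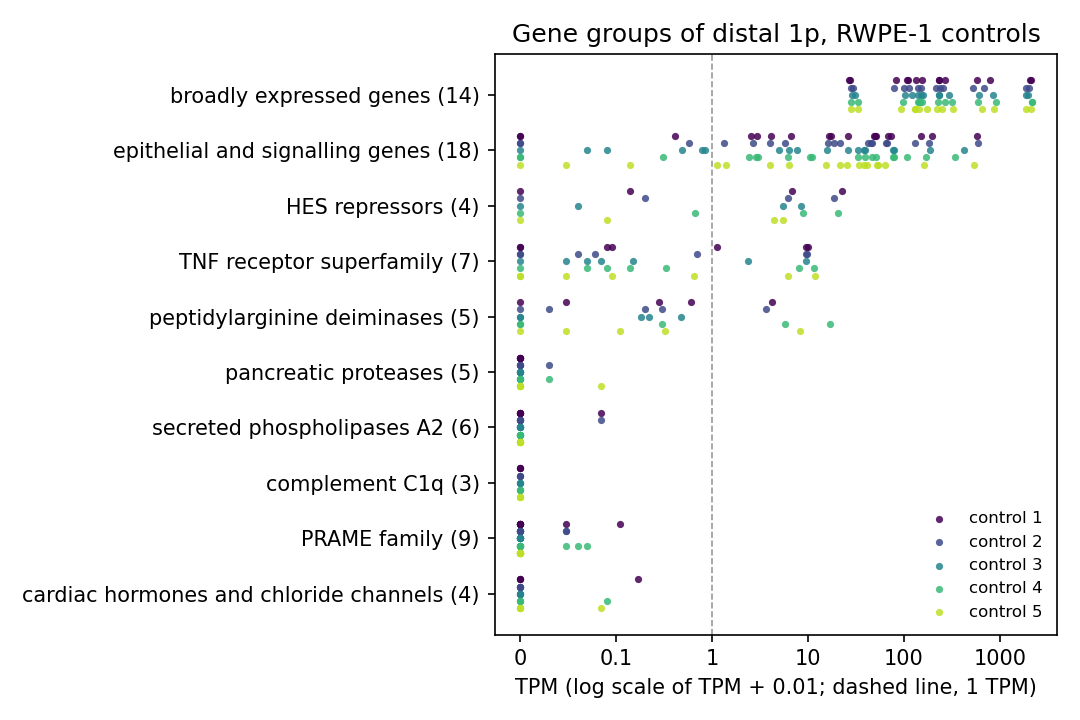
TPM (horizontal axis, log scale of TPM + 0.01; dashed line at 1 TPM) of the 75 listed genes of distal 1p in each of the 5 RWPE-1 control libraries, by gene group with the number of genes in brackets (vertical axis). The 14 broadly expressed genes lie above 1 TPM in every library, and the groups from pancreatic proteases downward lie below it.

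Among 75 genes listed by role, all 14 broadly expressed genes were at 1 TPM or more, with medians from 28.0 TPM for MTOR, the growth-controlling kinase, to 2082 TPM for RPL11. Of 18 epithelial and signalling genes, 15 were at 1 TPM or more. The exceptions were PAX7, a muscle precursor factor listed at 0 throughout, RUNX3, with a median of 0, and PRDM16, with a median of 0.30 TPM. The background share of expressed genes was 60.8% over the stretch, and lists were drawn up by known role, so their counts describe these genes alone.

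Several epithelial regulators were expressed. SFN had 575.2, 596.2, 425.5, 342.2 and 545.7 TPM in controls 1 to 5. AGRN, the matrix proteoglycan agrin, had 150.4, 132.2, 78.6, 107.6 and 64.4 TPM. EPHA2, an ephrin receptor, had 51.5, 45.5, 77.3, 79.7 and 53.4 TPM. TP73, a member of the p53 family, had 17.2, 18.8, 5.00, 10.4 and 15.4 TPM. Control 3 was lowest for TP73, as it was for TP63 above, and second lowest for AGRN, while it was second highest for EPHA2.

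ID3, an inhibitor of basic helix-loop-helix factors, had 25.9, 21.8, 39.5, 78.1 and 25.4 TPM in controls 1 to 5, highest in control 4. WNT4, a Wnt ligand, had 2.96, 2.66, 0.48, 3.03 and 3.98 TPM. GRHL3, a grainyhead factor of epidermal differentiation, had 2.55, 1.33, 0.78, 2.84 and 1.38 TPM. Control 3 was the lowest for both of these, and below 1 TPM.

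Members of families of paralogues differed in level. Of 4 HES repressors, HES4 had a median of 18.5 TPM and HES2 of 6.12 TPM, while HES5 had 0.13 TPM and HES3 was listed at 0. Of 7 TNF receptor superfamily genes, TNFRSF14 and TNFRSF25 had medians of 9.78 and 9.50 TPM and their ranges, 2.38 to 11.7 and 8.11 to 11.9 TPM, overlapped. The other 5 had medians below 1 TPM, the highest of them 0.64 TPM for TNFRSF1B, which reached 1.12 TPM in control 1.

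The peptidylarginine deiminases, which convert arginine to citrulline in proteins, form a run of 5 neighbouring genes. PADI3, known from hair follicle and epidermis, had 4.23, 3.62, 0.46, 5.75 and 8.29 TPM in controls 1 to 5 and was the only member with a median of at least 1 TPM. PADI2 had 0.59, 0.29, 0.17, 17.1 and 0.10 TPM. Control 4 alone was high for PADI2. PADI1, PADI4 and PADI6 had medians of 0.27, 0 and 0 TPM.

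Groups tied to other tissues were near 0 in every library. All 3 complement C1q genes, made by macrophages, were listed at 0, as were 5 of 6 secreted phospholipases A2 and 4 of 5 pancreatic proteases. None of the 4 cardiac hormone and chloride channel genes and none of the 9 listed PRAME family genes reached 1 TPM. PRAME family genes are near-identical copies, so reads among them may be split or lost in counting.

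Neighbouring genes were then compared. Of 354 pairs of neighbouring measured genes, 225 (63.6%) were alike, with 151 pairs of 2 expressed genes and 74 pairs of 2 below 1 TPM. That share was not set against other stretches or other gene orders. The longest runs are given as a description. The longest silent run was 26 genes from AADACL4 to LRRC38, which holds PRAME family genes, with no median above 0.05 TPM. Another 8 genes from PLA2G2E to VWA5B1, most of them secreted phospholipases, had medians of 0. The longest expressed run was 13 genes from HNRNPR, an RNA-binding protein, to FUCA1, a lysosomal enzyme, with medians from 3.19 to 2082 TPM, and it holds ID3 and RPL11. A run of 10 expressed genes led from GPR157 to NMNAT1. The last 10 genes taken, from DHDDS to NUDC, were expressed too. That run was cut where the gene order was ended, so its full length is not known.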

How the data were processed

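Hi-C read pairs per pair of bins are raw counts, deposited by the authors as 5 kb and 40 kb tables of 1 map that combines 2 replicates. HiC-Pro 2.8.0 and GRCh37 are given per the submitters' processing notes. The 5 kb table was used through bin 5500 and is held here only in part, through row bin 5549. RNA levels are TPM, deposited by the authors. For RNA the same notes name RSEM 1.3.0, featureCounts 1.5.1 and STAR 2.5.2b beside Trimmomatic 0.35, without saying which tool made the TPM, and RNA depth is not known from TPM.

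Counts were modelled as the product of 2 bin factors and a level for each distance (60 rounds, bins under 25% of the median coverage left out), and observed over expected read pairs were taken from it. Borders needed 66.7% of the scored bin pairs usable. Peaks were set against a ring, a lower left square, a row and a column of bins 20 to 35 kb away, at least 1.5-fold over each of the last 3, with at least 16 expected read pairs in the surroundings. The calculations were run on a simulated map with known borders and peaks, drawn with the fitted factors. Its outcome is not reported here. Python 3.11.15, numpy 2.4.6, scipy 1.17.1, pandas 2.3.3 and matplotlib 3.10.9 were used.

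The stretch and distances that define the members, the gene lists and the tests were chosen with earlier results of these data known, although the rule for members uses no contact value. The genes named were to be those of the lists by role, those starting near the 12 strongest borders and 15 strongest peaks, and the 10 of highest median TPM. With the map in GRCh37 and the annotation in GRCh38.p14, the genes at borders and peaks, 4 planned results on expressed genes there, and the DNA sequences of borders and anchors were not analysed here. The last gene of the stretch, NUDC, was set from general knowledge of 1p, so genes at its edge may lie outside 27.5 Mb. No model across genes was fitted and no p-value for a group of samples was computed. Other luminal markers that were looked up are not reported here.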

Additional observations from a re-analysis of the deposited data

Results flagged for a closer look

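PADI2, a peptidylarginine deiminase, stood apart in 1 library. RWPE-1 control 4 had 17.07 TPM, against 0.10 to 0.59 TPM in the other 4 control libraries, and the gap to the nearest of them was 0.971 of the whole range. This was 1 of 38 named genes of distal 1p with at least 1 TPM in some library that were looked at in this way. The cut-off, 0.71 of the range, is passed in about 1 of 20 sets of 5 independent, normally distributed values. Whether TPM values meet that condition was not tested. The neighbouring gene PADI3 had 5.75 TPM in control 4, within the 0.46 to 8.29 TPM of the other libraries, and PADI1 had 0.29 TPM there. KRT5 and KRT14 were at their lowest in control 4, with 5962 and 2843 TPM. Whether that library differs in its cells was not tested.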

How the results depend on the processing

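The slope of the decay ran from -1.14 to -1.12 under the 3 alternatives tried. The number of expressed genes, 216, was 190 at 5 TPM, 226 at 0.5 TPM and 216 to 217 when each control library was left out in turn. The number of borders was 99. It became 151 with a 50 kb window and 65 with a 200 kb window, and 59 of the 99 lay within 20 kb of a border of the wider window. The other border settings gave 80 to 114. The number of peaks was 17. It became 77 without balancing, 11 at 3-fold, 30 at an adjusted p under 0.1 and 29 in 10 kb bins, and the other settings gave 14 to 17. Among those, the setting at 1.5-fold over the ring could change nothing, since every bin pair that passed the adjusted p was already called. Of the 17 peaks, 13 were found again in 10 kb bins. The share of anchors near a border, 67.9%, became 25% when near meant within 10 kb, where 9.68% of usable bins qualify. Of the named peaks, 13 of 17 folds moved by more than counting error without balancing, with the 2 lowest at 1.10 and 1.13. The cause of these shifts was not tested, beyond the fact that a stricter fold or distance keeps fewer items. The peak settings of at least 8 expected read pairs and of full surroundings, the border setting away from unusable runs, all alternatives for the share of anchors, and those for the number of expressed genes were chosen after seeing the data. The share of anchors within 25 kb of a border was itself not listed among the planned results. Those took 10 kb as near, for gene starts. Alternatives for genes at borders and anchors were not run, since genes were not placed on the map. No paired analysis was possible because the results come from 1 combined map and from no test between groups. Depth limits peaks to pairs with enough expected reads, and at 2000 kb 90.7% of bin pairs were empty.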
